A study of Rattus norvegicus with 7 samples.

Results

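The peroxisome genes examined here were 33 rat genes of peroxisome assembly, fatty acid oxidation and ether lipid synthesis, chosen by name from the known functions of their products. Of these, 31 were found in both deposited tables among 17245 genes, and Pex19 and Decr2 were not analysed here. They comprised 11 biogenesis factors, 17 genes of transport, beta and alpha oxidation and product export, the ether lipid pair Gnpat and Agps, and the catalase gene Cat. RNA was sequenced from the meibomian gland, the lipid-secreting gland of the eyelid, to ask which transcripts differ after ultraviolet B (UVB) exposure of the lids. The animals were wild-type female Sprague-Dawley rats aged 3 months, with 4 libraries from untreated controls and 3 from UVB-exposed rats. Exposed rats had their upper eyelids shaved and received 300 mJ/cm2 in a daily session of 5 min over 5 days, after which glands were dissected and frozen. The labels give that protocol for every sample and list controls as untreated, so whether controls were shaved, and the time from the last session to dissection, are not stated. The controls are lettered a, b, c and d and the UVB libraries a, b and c; equal letters do not pair libraries. The sample names, and a number of its own in each library's column name whose meaning is not stated, are all that marks the libraries as separate rats, so p-values measure the spread between these libraries.

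Peroxisomes are small organelles that import their enzymes fully folded, from the cytosol, with the help of PEX proteins. Inside them, very long, branched and other fatty acids are shortened by beta or alpha oxidation, the hydrogen peroxide that this produces is removed by catalase, and the opening steps of ether lipid and plasmalogen synthesis take place. Meibomian secretion is rich in wax and cholesteryl esters with very long acyl and alcohol chains, so enzymes that shorten such chains and use fatty alcohols draw on the same pools as the gland's lipid synthesis.

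The promoters of Gnpat, Agps and Pex11a are shown because these genes lay above every control in every UVB library. The 3 sequences are the 250 bases before the RefSeq transcription start in assembly GRCr8, which is not the build rn7 used by the authors. Capitals mark the CCAAT box (CCAAT, or ATTGG on the other strand) and the GC box GGGCGG (also searched as its reverse complement).
Gnpat, chr19:69719457-69719706, plus strand: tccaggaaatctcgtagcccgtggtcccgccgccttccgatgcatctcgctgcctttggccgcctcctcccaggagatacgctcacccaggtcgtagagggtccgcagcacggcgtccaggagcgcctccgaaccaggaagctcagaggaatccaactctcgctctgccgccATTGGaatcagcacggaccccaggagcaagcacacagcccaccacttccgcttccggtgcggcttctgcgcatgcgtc
Agps, chr3:81154349-81154598, plus strand: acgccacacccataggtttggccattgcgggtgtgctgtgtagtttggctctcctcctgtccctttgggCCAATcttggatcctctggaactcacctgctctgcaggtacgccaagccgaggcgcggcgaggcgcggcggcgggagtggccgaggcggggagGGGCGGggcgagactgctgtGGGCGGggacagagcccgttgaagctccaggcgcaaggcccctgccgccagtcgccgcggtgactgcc
Pex11a, chr1:143096492-143096741, minus strand: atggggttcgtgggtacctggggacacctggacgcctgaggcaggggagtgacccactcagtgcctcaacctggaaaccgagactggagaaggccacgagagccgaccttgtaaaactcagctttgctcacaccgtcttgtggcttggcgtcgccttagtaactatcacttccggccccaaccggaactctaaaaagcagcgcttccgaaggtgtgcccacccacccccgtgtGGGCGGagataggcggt

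All 3 promoters were rich in G and C, with 64.4% for Gnpat, 68.8% for Agps and 60.0% for Pex11a. The median was 52% over rat promoters, taken as a single promoter per gene. Gnpat held an inverted CCAAT box 78 bases before its start, and Agps held a CCAAT box at 181 bases and GC boxes at 88 and 68 bases. Pex11a held a GC box at 17 bases and no CCAAT box in this window. A promoter was found for 28 of the 31 genes, all but Pex2, Ech1 and Pex6. A GC box was present in 21 of the 28 (75.0%), against 30.5% of 33469 promoters of the same length, and the median GC content of the 28 was 60.4%. A CCAAT box was present in 12 of the 28 (42.9%), against 34.0% of all. The 28 were a single promoter per gene, whereas the 33469 were limited neither in that way nor to expressed genes. The shares therefore compare unlike sets and do not show a trait of peroxisome genes. The perfect direct-repeat PPAR response element, searched on both strands, was in 0 of the 28 and in 0.0508% of all. A string this rare is near certain to be missing from 28 promoters, so the 0 does not show that PPAR sites are absent. Neither box contains the other, and a match is a string of letters, not a measured site.

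Several of the listed transcripts were abundant in the control gland. Where in the cell their products act was not measured, so these levels are not a measure of peroxisomes alone. On the TPM scale, which corrects for transcript length, 10 of the 31 genes stood among the 1000 most abundant of 17246 genes. The oxidation genes together reached 3080 ± 249 TPM (SD, n = 4) in controls, the biogenesis factors 973 ± 103 TPM and the ether lipid pair 68.9 ± 4.27 TPM. Scp2, which encodes both a thiolase and a sterol carrier protein, led at 724 ± 54.8 TPM (SD, n = 4), rank 165 of all genes. Crat, carnitine acetyltransferase, followed at 569 ± 93.3 TPM and Ech1, a dienoyl-CoA isomerase, at 415 ± 14.7 TPM. Across libraries the control ranges of Scp2 and Crat overlapped: the lowest Scp2 library had 658 TPM and the highest Crat library 697 TPM. Within each control library Scp2 lay above Crat. The lowest Crat library, at 488 TPM, lay above the highest Ech1 library, at 430 TPM. Abcd3, which carries acyl-CoA into the peroxisome, was at 371 ± 77.4 TPM, the import receptor gene Pex5 at 277 ± 58.8 TPM and Pex16, a membrane assembly factor, at 258 ± 22.5 TPM. Pex5 overlapped both of the others between libraries, although within each control library Abcd3 lay above Pex5. The lowest Abcd3 library, at 307 TPM, lay above the highest Pex16 library, at 282 TPM.

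Several functional partners were very unequal. Pex5, the receptor for the common C-terminal import signal, was 11.9 ± 1.94 times as abundant in TPM as Pex7, the receptor for the rarer N-terminal signal (SD, n = 4). Gnpat exceeded Agps 8.55 ± 0.828 times, although their products act one after the other. Hsd17b4, the D-bifunctional enzyme, exceeded Ehhadh, the L-bifunctional enzyme, 4.27 ± 0.662 times. Among transporters, Abcd3 stood far above Abcd2, at 0.333 ± 0.0569 TPM. The branched-chain oxidase gene Acox3 was at 96.2 ± 39.0 TPM, whereas Acox2, which acts on bile acid intermediates and branched chains, had 0 to 4 counts per library and was not tested. At that depth a change in Acox2 was not detectable.

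**Figure D1:**
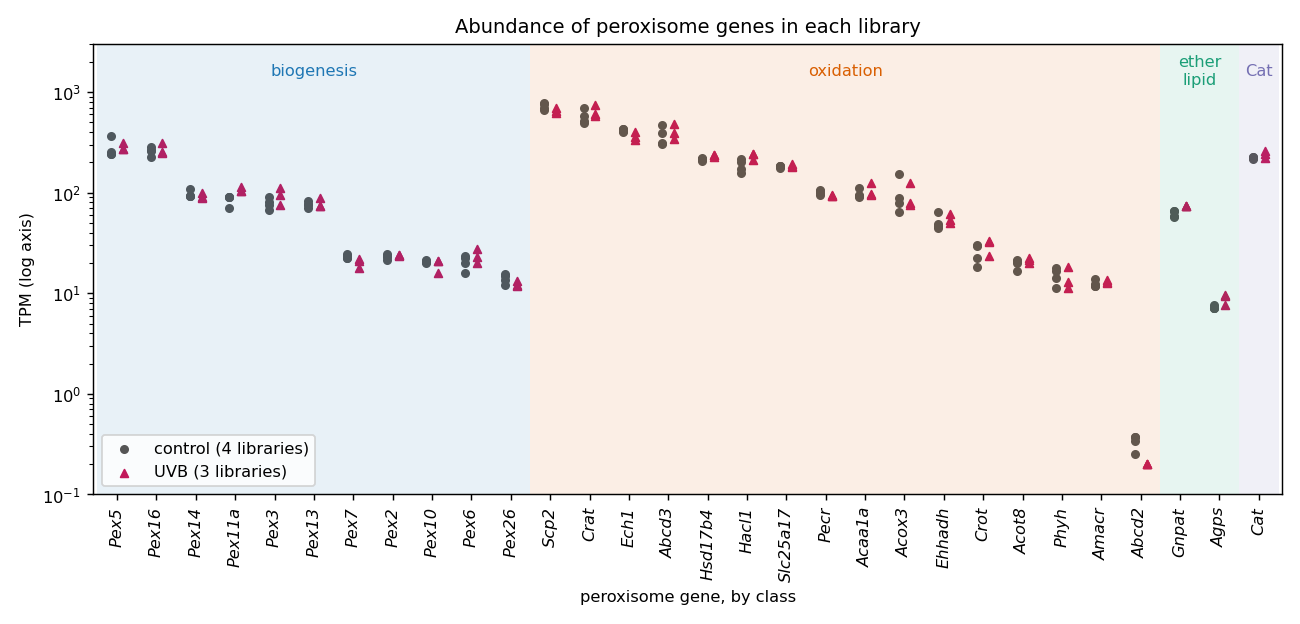
Abundance in TPM (log axis) of 30 peroxisome genes in each of the 4 control (circles) and 3 UVB libraries (triangles), grouped by class and ordered by control mean; Acox2, with values of 0, is not drawn. The genes span from 0.333 TPM for Abcd2 to 724 TPM for Scp2 in control means, and for most genes the circles and triangles overlap.

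After UVB, most of these transcripts had log2 fold changes near 0, and few passed the test. Of the 30 tested genes, 2 rose and 0 fell (6.67%) in edgeR's quasi-likelihood test at an adjusted p of 0.05, against 13.0% of all 13709 genes tested, of which 6.30% rose and 6.74% fell. The genes that rose were Pex11a and Gnpat. Both counts of falls and rises were the same in DESeq2 and limma-voom. An unadjusted p under 0.05 was reached by 4 genes with higher values (Pex11a, Gnpat, Agps, Hacl1) and 2 with lower values (Abcd2, Ech1), 6 of the 30 in all, against 29.5% of all genes tested (14.0% higher, 15.5% lower). The UVB and control libraries did not overlap for 6 of the 30, against 26.6% of all genes tested. Higher without overlap were Pex11a, Gnpat and Agps (12.8% of all genes), and lower without overlap were Pex7, Abcd2 and Pecr (13.8% of all genes). The median log2 fold change over the 30 was 0.068, against -0.0058 for all genes, and 19 of the 30 (63.3%) lay above 0, against 49.1% of all. The median size of change, whatever its sign, was 0.12 for these genes and 0.16 for all genes, with median standard errors of 0.11 and 0.11. Of the 28 that did not pass, 19 had a 95% interval within 0.5 of no change on the log2 scale. The other 9, namely Pex3, Pex6, Abcd2, Abcd3, Acox3, Phyh, Hacl1, Crot and Agps, had intervals that reach past it, and a gene that missed the threshold is not thereby shown to be unchanged.

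**Figure D2:**
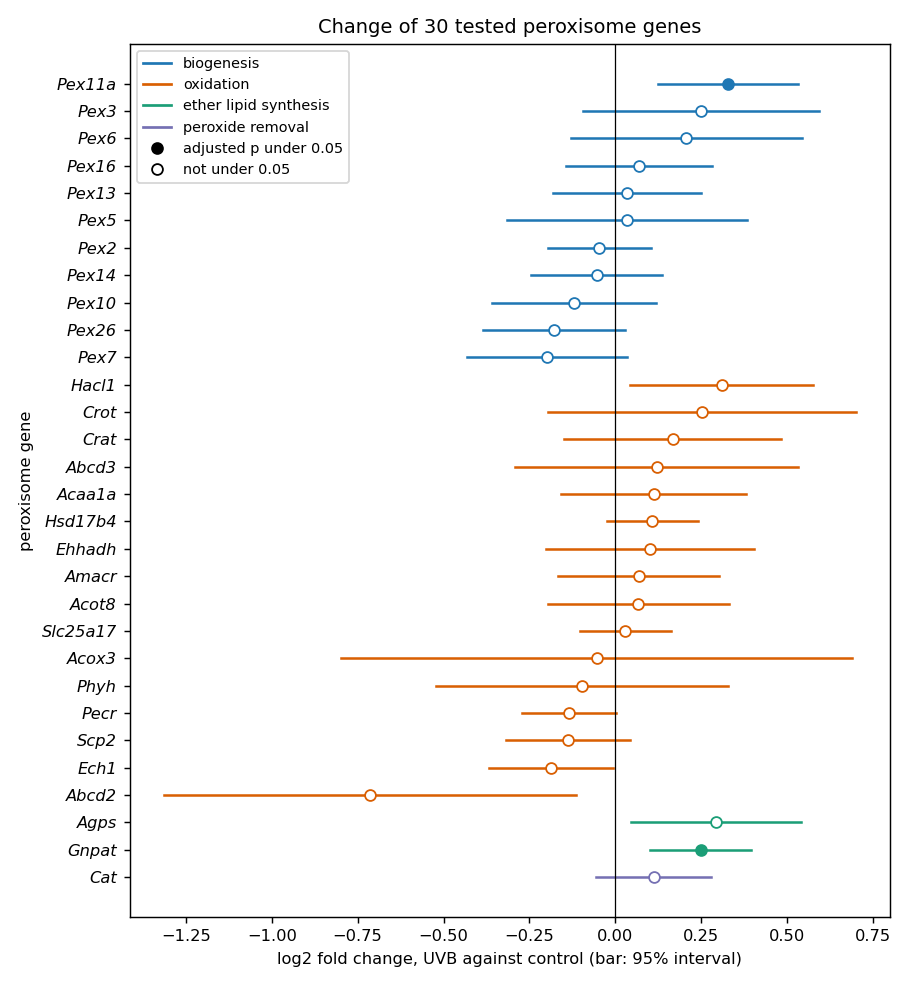
Log2 fold change of UVB against control for the 30 tested genes (points; filled where the edgeR adjusted p is under 0.05) with 95% intervals (bars), coloured by class. Pex11a at 0.33 and Gnpat at 0.25 are the filled points, and Abcd2 at -0.71 has the lowest value with a wide interval.

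The ether lipid class held only 2 genes, and for each of them every UVB library lay above every control. The same held for 12.8% of all genes tested. Gnpat encodes the acyltransferase that places an acyl chain on dihydroxyacetone phosphate. Its level, in CPM (counts scaled here to normalised library size), was 98.3, 84.8, 93.6 and 86.4 in the controls, in letter order, and 106.1, 109.7 and 107.6 after UVB. All UVB libraries lay above all controls and close to each other. Gnpat rose by 0.25 on the log2 scale (SE 0.065, 95% interval 0.10 to 0.39, edgeR adjusted p = 0.0361), a mean of 90.8 ± 6.30 CPM (SD, n = 4) against 107.8 ± 1.82 (SD, n = 3). Agps encodes the synthase that swaps this acyl chain for a fatty alcohol and so makes the ether bond. Its values were chosen for display after they were seen. They were 8.9, 9.5, 8.7 and 9.0 CPM in controls and 11.6, 9.8 and 11.8 CPM after UVB. UVB b stood only just above the highest control. The log2 fold change of Agps was 0.29 (SE 0.11, 95% interval 0.044 to 0.54), and it did not pass the threshold (edgeR adjusted p = 0.114).

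Summed in TPM, the pair stood at 73.0, 65.1, 72.1 and 65.3 in the controls and at 83.2, 81.3 and 82.8 after UVB, a sum set mostly by Gnpat. The ratio of Gnpat to Agps in TPM was 8.55 ± 0.828 for controls (SD, n = 4) and 8.35 ± 1.02 for UVB (SD, n = 3; exact two-sided permutation test, p = 0.8, 0.947 after adjustment over 8 ratios). The call for Gnpat was lost when any one library other than control a was left out: without control b, c or d the edgeR adjusted p was 0.0894, 0.073 or 0.0956, and without UVB a, b or c it was 0.07, 0.0898 or 0.0833. It was also lost in limma on log2(TPM + 1) without a filter (adjusted p = 0.0551). With 1 library left out, its log2 fold change stayed between 0.22 and 0.29. In GRCr8, Gnpat overlaps the neighbouring coding gene C19h1orf131, and the handling of strand in the authors' counting is not given in the sources used here, so its reads may be shared. The same limit holds for Ech1, Pex7, Acox3, Acaa1a, Pex6 and Acot8, which overlap other coding genes there.

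Further steps of ether lipid synthesis were read from a separate list of 10 genes, of which 8 were tested. None of these passed in edgeR, 1 had an unadjusted p under 0.05, and their median log2 fold change was -0.13. That gene was Far1, a reductase that makes the fatty alcohols used by Agps and by wax synthesis. Far1 was at 1550, 1132, 1203 and 1466 CPM in controls a to d and at 1035, 912 and 1062 CPM after UVB. Every UVB library lay below every control, in the direction opposite to Agps and Gnpat. Its log2 fold change was -0.42 (SE 0.12, 95% interval -0.69 to -0.14, edgeR adjusted p = 0.0512). Far1 passed in DESeq2 (adjusted p = 0.00899), in limma-voom (adjusted p = 0.0495), in edgeR without the low-count filter (adjusted p = 0.0454) and in edgeR without control b (adjusted p = 0.0361). Its paralog Far2, which is also a meibocyte marker, overlapped between groups at 2731 to 4176 CPM in controls and 2560 to 3594 CPM after UVB, with a log2 difference of -0.13 (SE 0.18, edgeR adjusted p = 0.667). Peds1, the desaturase of plasmalogen synthesis listed in the tables as Tmem189, had a log2 fold change of -0.19.

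The biogenesis factors held the other gene that rose. Pex11a encodes a membrane protein that elongates peroxisomes before they divide, and is known as the member of its family that responds to fatty acid receptors of the PPAR type. It was at 120.7, 119.3, 117.7 and 94.9 CPM in controls and at 135.3, 153.4 and 137.4 CPM after UVB. The groups did not overlap, and control d lay well below the other controls. Pex11a rose by 0.33 on the log2 scale (SE 0.091, 95% interval 0.12 to 0.53, edgeR adjusted p = 0.0433), from 113.2 ± 12.2 (SD, n = 4) to 142 ± 9.93 CPM (SD, n = 3). Without control d the log2 fold change was 0.26 (adjusted p = 0.0638), and without UVB b it was 0.27 (adjusted p = 0.129). The call was also lost without control b (adjusted p = 0.0675), control c (0.0818), UVB a (0.0666) and UVB c (0.0779), and on the TPM scale (limma, adjusted p = 0.0538 with log2(TPM + 1)). It was kept without control a (adjusted p = 0.0412).

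The other 10 tested biogenesis factors did not pass. Pex3 and Pex16, which insert membrane proteins into peroxisomes, had log2 fold changes of 0.25 and 0.069. Pex3 was at 123.1, 99.98, 107.5 and 89.96 CPM in controls and 98.3, 150.7 and 125.7 CPM after UVB, a spread that covers the difference (SE 0.15, edgeR adjusted p = 0.309). Of the import receptors, Pex5 was at 715, 478, 485 and 476 CPM in controls and at 512, 615 and 527 CPM after UVB. Control a stood far above the other controls and above all UVB libraries. The log2 fold change of Pex5 was 0.034 (SE 0.15; edgeR adjusted p = 0.909) with control a and 0.20 without it. Pex7 was at 20.5, 18.5, 18.7 and 18.5 CPM in controls and 14.2, 18.5 and 17.1 CPM after UVB, with UVB b just under the lowest control. It stood at -0.20 on the log2 scale (SE 0.10, edgeR adjusted p = 0.236). The ratio of Pex5 to Pex7 in TPM was 11.9 ± 1.94 for controls (SD, n = 4) and 14.2 ± 1.11 for UVB (SD, n = 3; exact two-sided permutation test, p = 0.114, adjusted p = 0.457). With 4 against 3 libraries this test allows no p below 0.0286, too large for a lone ratio to pass after adjustment over 8. All UVB ratios, 13.0 to 15.3, lay above those of controls b, c and d, 10.9 to 11.0, and control a was at 14.8.

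Pex13 and Pex14, which dock the loaded receptor at the membrane, had log2 fold changes of 0.034 and -0.055. Pex2 and Pex10 form part of the ubiquitin ligase that marks the receptor for recycling, and stood at -0.047 and -0.12. Pex6, an ATPase that pulls the receptor back out, stood at 0.21 (SE 0.15), and Pex26, its membrane anchor, at -0.18 (SE 0.092, edgeR adjusted p = 0.227). Pex26 was at 27.4, 33.4, 33.6 and 30.6 CPM in controls and 26.1, 29.999 and 26.8 CPM after UVB, with overlap between the groups. The median of the 11 tested biogenesis factors was 0.034. Of a further 10 tested genes of biogenesis and division, Pxmp4, a small membrane protein of the peroxisome, fell by 0.37 on the log2 scale (SE 0.091, edgeR adjusted p = 0.0285). Pxmp4 was at 978, 767, 812 and 818 CPM in controls and 663, 628 and 665 CPM after UVB, so that all UVB libraries lay below all controls. Its adjusted p without control c or d, or without UVB a, b or c, was 0.062 to 0.0824.

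**Figure D3:**
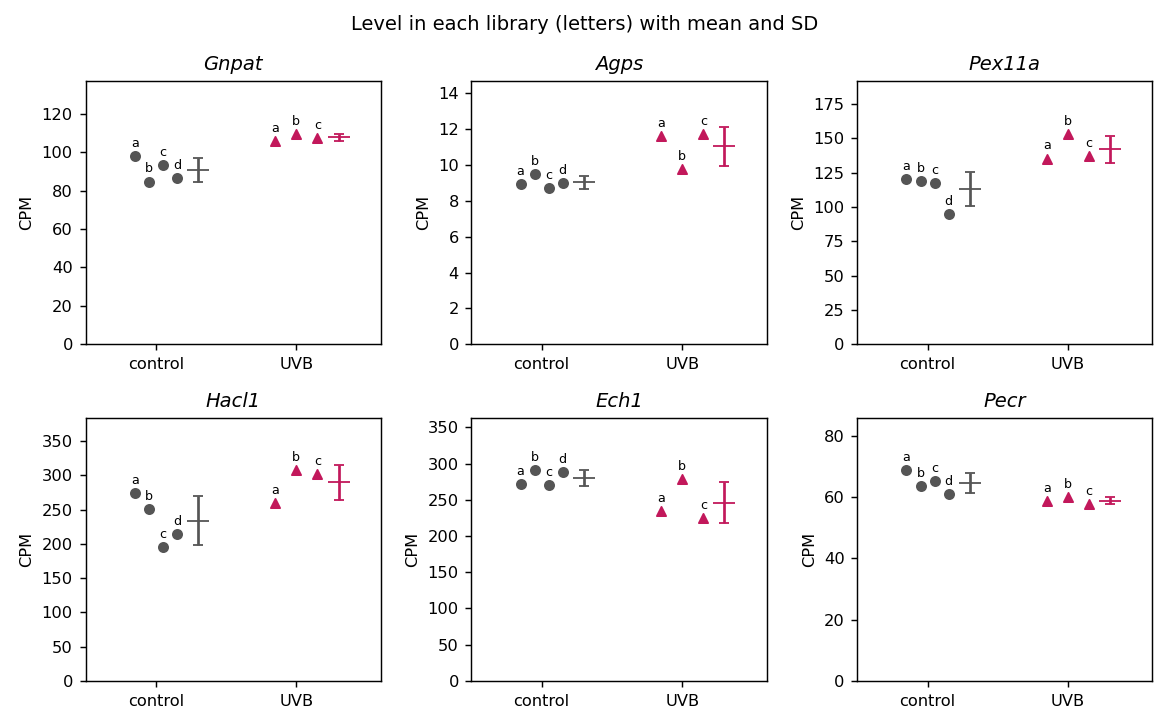
Level in CPM of 6 genes in each library (letters), with the mean and SD of the 4 controls (grey) and 3 UVB libraries (red) to the right of each group; the genes were chosen for display after their values were seen. For Gnpat, Agps and Pex11a every UVB library lies above every control, for Pecr below, and for Hacl1 and Ech1 the groups overlap.

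None of the 16 tested oxidation genes passed in edgeR, DESeq2 or limma-voom, and 3 had an unadjusted p under 0.05 in edgeR, against the 29.5% of all genes. Their median log2 fold change was 0.068. Hacl1, the lyase that splits hydroxyacyl-CoA in alpha oxidation, was at 274.6, 251.5, 195.2 and 214.8 CPM in controls a to d and at 260.2, 307.2 and 302.1 CPM after UVB. UVB a fell between controls a and b. The log2 fold change of Hacl1 was 0.31 (SE 0.12, 95% interval 0.043 to 0.58, edgeR adjusted p = 0.118), and without control a it was 0.40 (adjusted p = 0.0399). Phyh, the hydroxylase that precedes it, had a log2 fold change of -0.097 (SE 0.19). In TPM, the ratio of Hacl1 to Phyh was 13.1 ± 4.25 for controls (SD, n = 4) and 17.3 ± 4.95 for UVB (SD, n = 3; exact two-sided permutation test, p = 0.286, adjusted p = 0.762).

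Ech1, an auxiliary enzyme for unsaturated chains, and Pecr had the lowest log2 fold changes among well-expressed oxidation genes, together with Scp2. Ech1 was at 272.5, 290.7, 270.1 and 288.0 CPM in controls and at 235.1, 278.3 and 225.4 CPM after UVB. UVB a and UVB c lay below all controls and UVB b among them. The log2 fold change of Ech1 was -0.19 (SE 0.080, 95% interval -0.37 to -0.0069, edgeR adjusted p = 0.154), and without UVB b it was -0.28 (adjusted p = 0.0416). Pecr, an enoyl-CoA reductase, was at 68.7, 63.6, 65.1 and 60.9 CPM in controls and at 58.6, 59.9 and 57.8 CPM after UVB, so the groups did not overlap. The difference was small, at -0.13 (SE 0.061, edgeR adjusted p = 0.172). Amacr, the racemase that prepares branched chains for oxidation, stood at 0.068 (SE 0.10).

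The core of the beta oxidation spiral did not pass in any step. Hsd17b4 was at 352.5, 342.1, 337.8 and 331.5 CPM in controls and at 351.7, 381.2 and 368.7 CPM after UVB, with a log2 difference of 0.11 (SE 0.059, edgeR adjusted p = 0.259). Ehhadh and the thiolase gene Acaa1a stood at 0.10 (SE 0.13) and 0.11 (SE 0.12). Scp2 was at 1137, 987, 1003 and 1124 CPM in controls and 1005, 971 and 919 CPM after UVB, which overlap. It stood at -0.14 on the log2 scale (SE 0.080, edgeR adjusted p = 0.281). Acox3 varied most among libraries of one group, from 153.6 to 367.1 CPM in controls, and its interval, -0.80 to 0.69, leaves its direction undetermined.

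Among transporters, the lowly expressed Abcd2 had the lowest value of all 30 genes. It had 27, 18, 36 and 27 counts in controls a to d and 14, 18 and 18 counts after UVB, which corresponds to 1.26, 0.84, 1.24 and 1.15 CPM against 0.66, 0.70 and 0.69 CPM. All UVB libraries lay below all controls on the CPM scale. The log2 fold change was -0.71 (SE 0.27, 95% interval -1.31 to -0.11), and it did not pass (edgeR adjusted p = 0.111). On the log2(TPM + 1) scale without a filter, which compresses low levels, its difference was -0.15. Abcd3 stood at 0.12 (SE 0.18) and Slc25a17, a carrier of cofactors such as CoA across the membrane, at 0.029 (SE 0.059). The export genes were Crot and Crat, which attach the shortened chains to carnitine, and the thioesterase gene Acot8, and none passed. Crot was at 30.5, 51.3, 48.2 and 37.0 CPM in controls and 53.3, 39.8 and 56.1 CPM after UVB, with overlap and a log2 difference of 0.25 (SE 0.19, edgeR adjusted p = 0.429). Crat stood at 0.17 (SE 0.14) and Acot8 at 0.067 (SE 0.12). Catalase, the peroxide-removing enzyme, was at 324, 321, 303 and 303 CPM in controls and 335, 371 and 307 CPM after UVB. The lowest UVB library was between the controls, and the log2 fold change of Cat was 0.11 (SE 0.075; edgeR adjusted p = 0.351).

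Other oxidation genes of the peroxisome showed changes in both directions. Of 15 tested, Slc27a4 and Nudt7 rose, Acot4 fell, and the median was -0.13. For this and the other lists of further genes, the share of all genes past the threshold was 13.0% (6.30% higher, 6.74% lower). Whether 3 of 15 differs from that share was not tested. Nudt7 encodes a hydrolase that breaks down CoA in peroxisomes. It was at 85.5, 71.4, 74.7 and 77.4 CPM in controls and 108.8, 107.9 and 99.9 CPM after UVB, above every control. Nudt7 rose by 0.45 on the log2 scale (SE 0.072, edgeR adjusted p = 0.00678). Slc27a4, a fatty acid transport protein with acyl-CoA synthetase activity that is not confined to peroxisomes, rose by 0.54 (SE 0.071, edgeR adjusted p = 0.00348). Nudt7 and Slc27a4 passed under all 16 alternatives. Acot4, a thioesterase gene with only 26 to 69 counts per library, fell by 0.97 on the log2 scale (SE 0.25, edgeR adjusted p = 0.0354), and its call was lost without any one of the 7 libraries (adjusted p 0.0569 to 0.111). On the log2(TPM + 1) scale the difference of Acot4 was -0.52 in limma, with an adjusted p of 0.0494 with the filter and 0.0519 without it.

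Of 9 tested redox and amine enzymes, Paox, a polyamine oxidase, rose by 0.23 (SE 0.065, edgeR adjusted p = 0.0476), and Mpv17 fell by 0.23 on the log2 scale (SE 0.061, edgeR adjusted p = 0.0351). Mpv17 was once described as peroxisomal and is now known as a mitochondrial inner membrane protein. The call for Paox was lost without any control, UVB b or UVB c (adjusted p 0.0626 to 0.138), and that for Mpv17 without any one library (adjusted p 0.0501 to 0.106). Paox also missed the threshold in edgeR without the low-count filter (adjusted p = 0.0536), and Mpv17 in edgeR with library size alone (adjusted p = 0.0534). The 4 lists of further genes together had 3 higher and 3 lower of 42 tested (14.3%), against the 13.0% of all genes. These lists are not wholly peroxisomal, as Mpv17 and Slc27a4 show, so 14.3% is not a share of peroxisomal genes alone. For mitochondrial beta oxidation, which shortens the more common chains, 1 of 17 tested genes passed in edgeR and rose, 7 had an unadjusted p under 0.05, against the same 29.5%, and the median was 0.15. That gene was Acads, the short-chain acyl-CoA dehydrogenase, at 0.31 (SE 0.074, edgeR adjusted p = 0.0273), and its call was lost without control b, c or d or UVB a or b (adjusted p 0.0509 to 0.0812). Of 9 regulators, Ppard, a nuclear receptor for fatty acids, rose by 0.30 (SE 0.079, edgeR adjusted p = 0.0355), which was lost without any one library except control a (adjusted p 0.0531 to 0.108) and in limma on log2(TPM + 1) without a filter (adjusted p = 0.0595).

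Within each group, the same library was often the highest. Of the 30 tested, 22 had their highest control value in control a, and 24 had their highest UVB value in UVB b. The same count was not made over all genes, so this is not shown to be particular to peroxisome genes. The summed CPM of 11 meibocyte markers, genes of the lipid-producing cells, was also highest in control a and in UVB b. That sum ran from 95822 to 118879 CPM in controls and from 91590 to 112739 CPM after UVB, so the groups overlapped, and most of it was Scd. Without Scd the sum ran from 22483 to 28031 CPM in controls, highest in control a, and from 20325 to 23003 CPM after UVB, highest in UVB b. The part of these levels in the results was not tested. Without control a, 3 peroxisome genes passed as higher (Gnpat, Pex11a and Hacl1) and 0 as lower. Without UVB b, 0 passed as higher and 1 as lower (Ech1), and the oxidation median was -0.019. The median of the ether lipid pair was 0.31 without UVB b and 0.29 without control a.

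**Figure D4:**
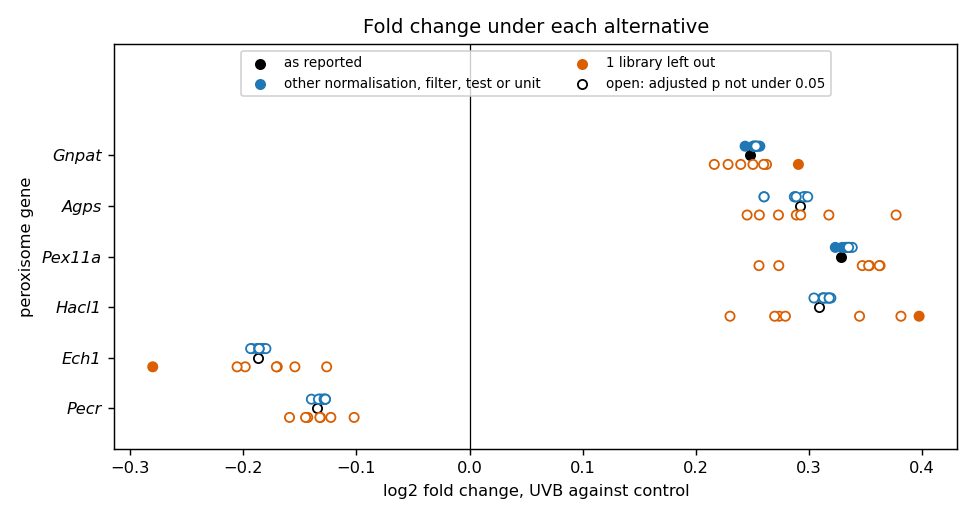
Log2 fold change of UVB against control for 6 genes as reported (black), with another normalisation, filter, test or unit (blue) and with 1 library left out (orange); open points have an adjusted p not under 0.05. Gnpat stays between 0.22 and 0.29 and Pex11a between 0.26 and 0.36, while most of their orange points are open.

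The libraries held 20680237 to 28784941 counts. As a check of the tissue label, the meibocyte marker Scd had 73338 to 90848 CPM in controls. Of the 11 meibocyte markers tested, 3 fell in edgeR, namely Awat1 (-0.33, a call lost without any one library except control b, adjusted p 0.0536 to 0.115, and at 0.0502 in limma on log2(TPM + 1) without a filter), Awat2 (-0.66) and Plin2 (-0.45). Of the 11, 3 higher and 3 lower had an unadjusted p under 0.05, against 29.5% of all genes tested (14.0% higher, 15.5% lower). For this and every marker count below, the share of all genes past the adjusted threshold was 13.0%, with 6.30% higher and 6.74% lower. Other cell types were read from marker lists, whose part in the results above was not tested, and in whole tissue fewer cells of a type and less RNA per cell cannot be told apart. Keratinocyte markers rose in 2 of 10, with sums of 15723 to 18484 CPM in controls and 18394 to 21521 CPM after UVB. Of these 10, 5 had log2 fold changes below 0, the lowest -1.32. For 1 of the 10 every UVB library lay below every control, although it did not pass. Fibroblast markers rose in 3 of 5 (sums of 2418 to 3756 and 2456 to 4094 CPM) and endothelial markers in 3 of 4 (82.6 to 101.3 and 121.8 to 141.9 CPM). Below 0 on the log2 scale were 1 fibroblast marker, at -0.48, and 0 endothelial markers. Macrophage markers rose in 2 of 6 (58.5 to 108.4 and 82.1 to 157.9 CPM), with 2 of the 6 below 0 on the log2 scale. T cell markers rose in 2 of 3 (2.41 to 3.46 and 3.25 to 5.43 CPM), with 1 of the 3 below 0, at -0.55. Neutrophil markers rose in 2 of 3 (250.8 to 274.5 and 293.3 to 371.2 CPM) and mast cell markers in 2 of 4 (36.0 to 51.2 and 58.8 to 76.6 CPM). In controls the neutrophil sum was almost all S100a8 (mean 159 CPM) and S100a9 (mean 107 CPM), with Csf3r at 0.22 CPM and Mpo at 0.026 CPM. The neutrophil markers that rose were S100a9 (0.46) and Csf3r (3.16). The cell source of S100a8 and S100a9 was not tested. Adipocyte markers fell in 1 of 4 (4.87 to 24.0 and 2.94 to 8.17 CPM), melanocyte markers in 1 of 3 (79.1 to 155.2 and 59.3 to 70.4 CPM) and Schwann cell markers in 1 of 4 (102.5 to 118.9 and 70.8 to 82.2 CPM). The adipocyte markers did not all go the same way, with 3 below 0 on the log2 scale and 1, Retn, above 0. Retn had an unadjusted p under 0.05 in edgeR, but it did not pass and its groups overlapped. Skeletal muscle markers changed in 0 of 5 (2110 to 2868 and 1512 to 2574 CPM), with 0 at an unadjusted p under 0.05 and 0 in DESeq2 and limma-voom. No listed marker in the tables was at 0 in every library.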

How the data were processed

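RNA sequencing was done on 4 control and 3 UVB libraries. Per-gene expected counts were deposited without normalisation (12.5% of values not whole), beside TPM values, which the authors scaled by transcript length and library; each library's TPM values summed to 82.0% to 84.1% of the full total. The submitters' processing notes name FastQC, Trimmomatic, DRAGEN, Picard and the build rn7; the annotation and strand setting are not given in the sources used here. Unquoted commas moved cells in 2281 of 17251 rows, so values were read from the right end of each row, and 5 rows lacking a value were left out. The ratio of count to TPM was off by more than 1.5 times in 10 of 11951 genes checked. Column names give the group, genotype, tissue and a number that is not the replicate number of the titles.

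Expected counts were rounded and tested in edgeR 4.0.16 (R 4.3.3; robust quasi-likelihood, TMM, filterByExpr), with Benjamini-Hochberg adjustment over 13709 genes and a threshold of 0.05; the design had assumed whole counts. CPM were computed here with TMM factors. Each standard error is the size of the log2 fold change over the root of F. No pair of libraries of a group agreed within sampling noise (chi-square per degree of freedom at least 10.9). The fits were tested on simulated data. There were 16 alternatives: 9 settings, with DESeq2 1.42.0 and limma 3.58.1, and 7 fits that leave out 1 library. Members and lists were chosen with earlier results of these data known. Full values are given for genes past the threshold, for the smallest p of each role otherwise and for the most abundant of each class; Agps, Pecr and the 8 TPM ratios were added after their values were seen. One gene of the lists is counted but not reported here. RefSeq tables of GRCr8 gave names, neighbours and promoters.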

Additional observations from a re-analysis of the deposited data

Results flagged for a closer look

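Within the 4 controls, 34 values were compared for a library far from the others, and 5 stood apart. For independent values, chance gives about 1 in 20 (1.7 of 34). These values share the same 4 libraries and are not independent, so the 5 cannot be weighed against that number. In 4 of the 5 the library was control a. Pex5 was at 715 CPM there and at 476 to 485 CPM in the other controls. Pex14 was at 123 CPM there against 101 to 104 CPM, Pex7 at 20.5 CPM against 18.5 to 18.7 CPM, and Amacr at 12.4 CPM against 10.4 to 10.6 CPM. Pex11a stood apart downwards in control d, at 94.9 CPM against 118 to 121 CPM, and without control d its call was lost (edgeR adjusted p = 0.0638). The cause was not tested.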

How the results depend on the processing

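Of the 30 tested members, 12 kept direction and call in all 16 alternatives, Abcd2 did so in the 13 that gave it a value, and 17 never changed direction. The number of members called higher was 1 in limma on log2(TPM + 1) and on log2(TPM + 0.1), 0 in limma on log2(TPM + 1) without a filter, and 0 to 3 when 1 library was left out (0 to 1 for lower). Genes called lower in the 4 further lists, which are not wholly peroxisomal, were 5 in DESeq2 and in limma-voom, and 0 to 3 with 1 library left out. Over all genes, calls ranged from 851 to 1898 with 1 library left out, against 1787. The oxidation median was then -0.019 to 0.13 and the biogenesis median -0.066 to 0.088. Under other settings the medians of the 3 classes stayed above 0. Pex2 turned to 0.039 on log2(TPM + 1), with or without the filter, and to 0.040 on log2(TPM + 0.1). With 1 library left out, the log2 fold changes of 13 further genes changed sign: Pex16 (-0.039 to 0.13), Pex5 (-0.047 to 0.20), Pex13 (-0.076 to 0.097), Pex14 (-0.12 to 0.018), Pex10 (-0.19 to 7.7e-07), Abcd3 (-0.040 to 0.27), Slc25a17 (-0.0052 to 0.054), Acox3 (-0.33 to 0.26), Ehhadh (-0.0019 to 0.22), Acaa1a (-0.033 to 0.20), Phyh (-0.29 to 0.040), Acot8 (-0.0075 to 0.14) and Far2 (-0.30 to 0.021). The cause was not tested. Without a change of sign, leaving out 1 library also moved Pex3 (0.096 to 0.40), Pex6 (0.067 to 0.31), Crat (0.041 to 0.29), Crot (0.13 to 0.39), Cat (0.043 to 0.18), Pex7 (-0.28 to -0.10), Pex2 (-0.070 to -0.011) and Amacr (0.042 to 0.13). Leaving out a library leaves fewer samples. No paired analysis was possible because the column names carry numbers that are not the replicate numbers of the titles. Depth limits Abcd2, Acox2 and Acot4.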
